A study of Homo sapiens with 12 samples.

Results

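DNA replication genes code for the proteins that license replication origins, unwind and copy DNA, supply its building blocks, and switch this programme on at the passage from G1 to S phase. Of 41 genes listed for this programme, 26 had a transcript cluster with their symbol in the annotation used here, and all 26 lay above the filter on low signal and were tested among 8930 genes in all. Where a symbol had more than 1 cluster, the one with the higher mean signal was used. Only CLSPN and GINS4 had another cluster, with a mean log2 signal of 2.10 against 6.97 for the cluster used for CLSPN, and of 3.24 against 5.43 for GINS4. The 26 were 8 genes of the MCM helicase and its partners, 5 of the GINS complex with CDC45, the licensing factors CDC6 and CDT1, the sliding clamp PCNA, the nuclease FEN1, 3 genes of nucleotide synthesis, 4 of E2F and cyclin E, and CLSPN and UHRF1. The other 15 were not analysed here. They were ORC1 and ORC6 of the origin recognition complex, the clamp loader subunits RFC2, RFC3, RFC4 and RFC5, the polymerase and primase subunits POLA1, POLA2, PRIM1, POLE, POLE2, POLD1 and POLD3, the ligase LIG1 and the thymidine kinase TK1. The measured genes therefore include no DNA polymerase subunit.

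AGS, MKN1 and SNU601, the 3 cell lines of the study, are established lines from gastric cancer. RNA was taken from each after exposure to the solvent DMSO, to Rhosin, an inhibitor of the GTPase RhoA, or to JK136 or JK139, compounds known here by code name only. Each combination had 1 array, so a line had 4 arrays and a treatment had 3. All lines were grown in RPMI-1640 medium with 10% fetal calf serum until they covered most of the dish, and neither doses nor exposure times are stated in the labels. The labels do not state that the arrays of a line came from separate cultures, and p-values measure the spread between these arrays only.

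Array medians lay between 4.144 and 4.202 on the log2 scale, and Pearson's r over all clusters was 0.978 to 0.988 between arrays of 1 line and 0.927 to 0.960 between lines. The epithelial keratin KRT18 had mean log2 signals of 9.63 (AGS), 10.75 (MKN1) and 10.50 (SNU601). Of the other epithelial markers, KRT8 read 6.16 (AGS), 6.55 (MKN1) and 6.44 (SNU601). With lines in the same order, KRT19 read 8.27, 9.72 and 9.33, and CLDN4 5.40, 5.07 and 5.47. The epithelial adhesion gene EPCAM read 10.04 in AGS and 10.19 in SNU601 but 6.49 in MKN1, and the epithelial splicing factor gene ESRP1 read 8.95, 8.86 and 4.11 in that order of lines. The gastric claudin gene CLDN18 read 9.52 in SNU601, 4.02 in AGS and 3.76 in MKN1, and the gastric mucosa gene GKN1 lay between 1.91 and 2.00 in every line. For the stomach marker TFF1 the means were 8.68 (SNU601), 6.75 (AGS) and 4.60 (MKN1). With lines ordered likewise, SOX2 gave 6.74, 6.64 and 4.24, and PGC, under the filter, 5.02, 4.69 and 3.85. TFF2, at 6.41, 3.68 and 4.08, was lowest in AGS instead. The endothelial marker PECAM1 was between 3.48 and 3.99 and the fibroblast marker DCN stayed near the bottom of the scale in all lines. Of the markers of other cell types with a cluster (CD68, PECAM1, VWF and DCN), CD68, a lysosomal gene of macrophages, was the 1 above the filter, at 6.14 in AGS, 8.65 in MKN1 and 8.33 in SNU601. The listed markers CDH1, MUC5AC, MUC6, PTPRC, CD3E, COL1A1, COL1A2 and HBB had no cluster with their symbol in the annotation, so their levels are not known. The part of these differences of cell state in the results below was not tested.

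Before S phase, CDC6 and CDT1 load the MCM2 to MCM7 ring onto origins that the origin recognition complex marks. CDC45 and the GINS complex then join the ring to form the active helicase, PCNA clamps the polymerases to DNA, and FEN1 trims the flaps of lagging strand fragments. Cyclin E and its kinase free E2F factors from the retinoblastoma protein, and E2F factors drive transcription of most genes of this programme, cyclin E genes among them. Transcripts of these genes rise and fall with the cell cycle. In bulk RNA of a line, fewer cells in S phase and less transcript per cell cannot be told apart.

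The promoters below are printed because E2F recognition letters are a sequence feature that many of these genes have in common. The genes were listed for a programme that E2F factors drive, so a high share of matches is not independent support for that link. Promoter windows from 250 bases before to 50 bases after the start of transcription were taken from RefSeq (GRCh38.p14) and matched 22 of the 26 genes, with MCM4, MCM5, GINS4 and CCNE2 unmatched. The letters TTTGGCGC, TTTCCCGC, TTTGCCGC or TTTCGCGC, searched on both strands, where a match of one may overlap a match of another, occurred in 16 of the 22 windows (72.7%), against 3.33% of all 27305 promoter windows of the same length. TTTCCCGC alone was in 9 windows (40.9%, against 1.66% of all) and TTTGGCGC in 6 (27.3%, against 0.659%). MCM10, CDC45, FEN1, RRM1, RRM2 and CCNE1 had no match in this window. The shorter CCAAT box, the pentamer CCAAT on either strand, was in 15 of the 22 windows (68.2%, against 35.7% of all). Of the matched genes with a match of these E2F letters wholly upstream of the start, the 4 with the largest differences between lines are shown 5′ to 3′ on the strand of the gene, upstream bases only, with capitals for the E2F letters or their reverse complement.
GINS2, chr16:85688955-85689025, minus strand: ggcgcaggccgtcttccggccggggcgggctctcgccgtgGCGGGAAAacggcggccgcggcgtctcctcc
MCM3, chr6:52284869-52284956, minus strand: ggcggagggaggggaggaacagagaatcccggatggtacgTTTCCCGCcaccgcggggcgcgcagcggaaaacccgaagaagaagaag
E2F1, chr20:33686386-33686458, minus strand: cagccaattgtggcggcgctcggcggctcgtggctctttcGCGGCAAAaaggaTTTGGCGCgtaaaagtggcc
MCM7, chr7:100101398-100101624, minus strand: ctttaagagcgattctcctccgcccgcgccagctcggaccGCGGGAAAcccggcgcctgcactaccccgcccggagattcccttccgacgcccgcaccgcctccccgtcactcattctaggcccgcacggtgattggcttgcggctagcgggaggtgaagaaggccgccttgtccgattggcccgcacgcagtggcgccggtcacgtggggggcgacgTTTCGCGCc
A match of letters describes the sequence and is not evidence of a bound site.

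**Figure D1:**
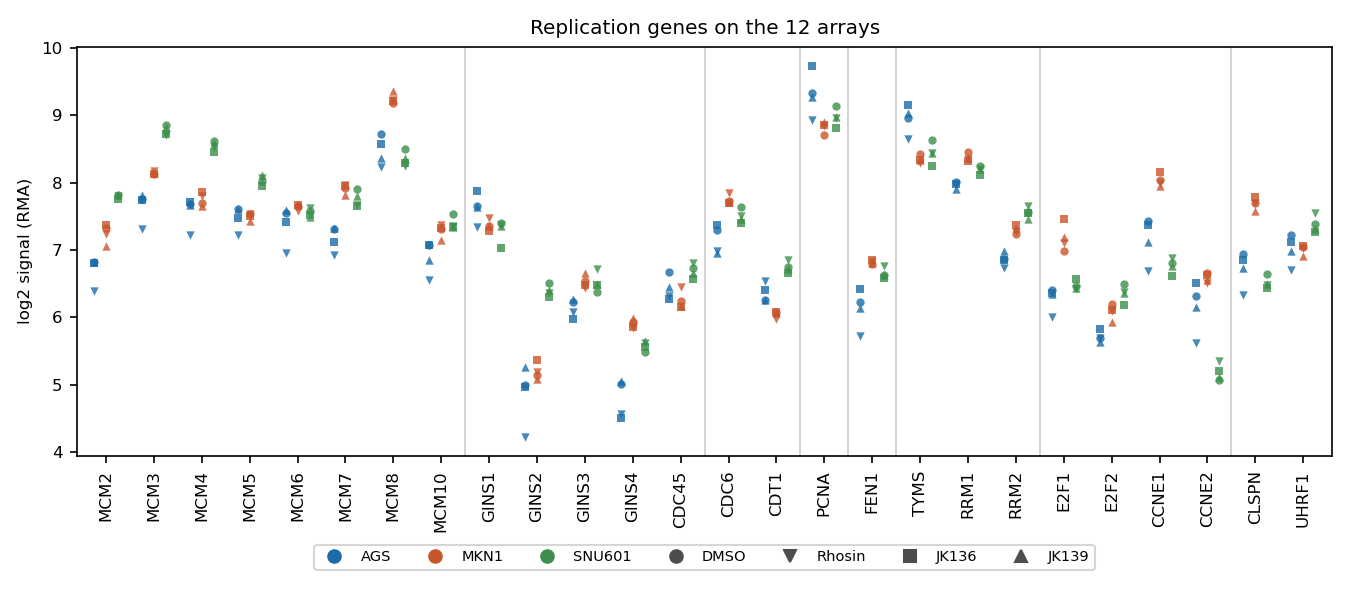
Deposited log2 signal (y axis) of each of the 26 replication genes (x axis) on the 12 arrays, coloured by line, with 1 symbol per treatment and vertical lines between subgroups. For GINS2 the 4 SNU601 arrays lie between 6.30 and 6.51, above the arrays of both other lines, and for CCNE2 they lie between 5.07 and 5.36, below them.

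Replication genes differed widely between the 3 lines, and AGS had the lowest level of most of them. By mean over 4 arrays, 17 of the 26 genes were lowest in AGS, where 35.9% of all genes were lowest, 4 were lowest in MKN1 (37.9% of all genes) and 5 in SNU601 (26.2%). GINS1, PCNA and TYMS were the 3 genes highest in AGS (29.1% of all genes), 12 were highest in MKN1 (37.5%) and 11 in SNU601 (33.4%). The share of the sum of squares that went with the line had a median of 88.4% over the 26 genes (range 34.6% to 94.2%) and 82.0% over all genes, and the share that went with treatment 3.85% and 5.30%. The lowest share of line, 34.6%, belonged to MCM6. These shares describe the 12 arrays and are not divided by degrees of freedom.

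Against AGS, MKN1 had higher levels of 16 replication genes and lower levels of 3 at an adjusted p under 0.05 in limma, so 19 of 26 passed where 66.3% of all genes did (35.3% higher and 31.0% lower). The median log2 difference of the 26 genes was 0.41, against 0.02 over all genes. SNU601 had 17 genes higher and 5 lower than AGS, 22 of 26 in all, where 52.7% of all genes passed (29.9% higher and 22.8% lower), with a median of 0.38 against 0.05. Between SNU601 and MKN1, 10 genes were higher and 8 lower in SNU601, 18 of 26 in all, where 63.4% of all genes passed (32.3% higher and 31.1% lower), and the median was 0.04 against 0.02. The total number that passed was thus near the background for MKN1 against AGS and for SNU601 against MKN1. In both comparisons with AGS the calls lay mostly on the higher side, at 16 and 17 genes. The 3 comparisons share arrays pairwise, and their spread is that between treatments of a line. All values of single genes below are deposited log2 signals, given on the arrays with DMSO, Rhosin, JK136 and JK139 in that order, and differences are in log2 units with their SE. Signals are compared between arrays for 1 gene and never between genes.

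**Figure D2:**
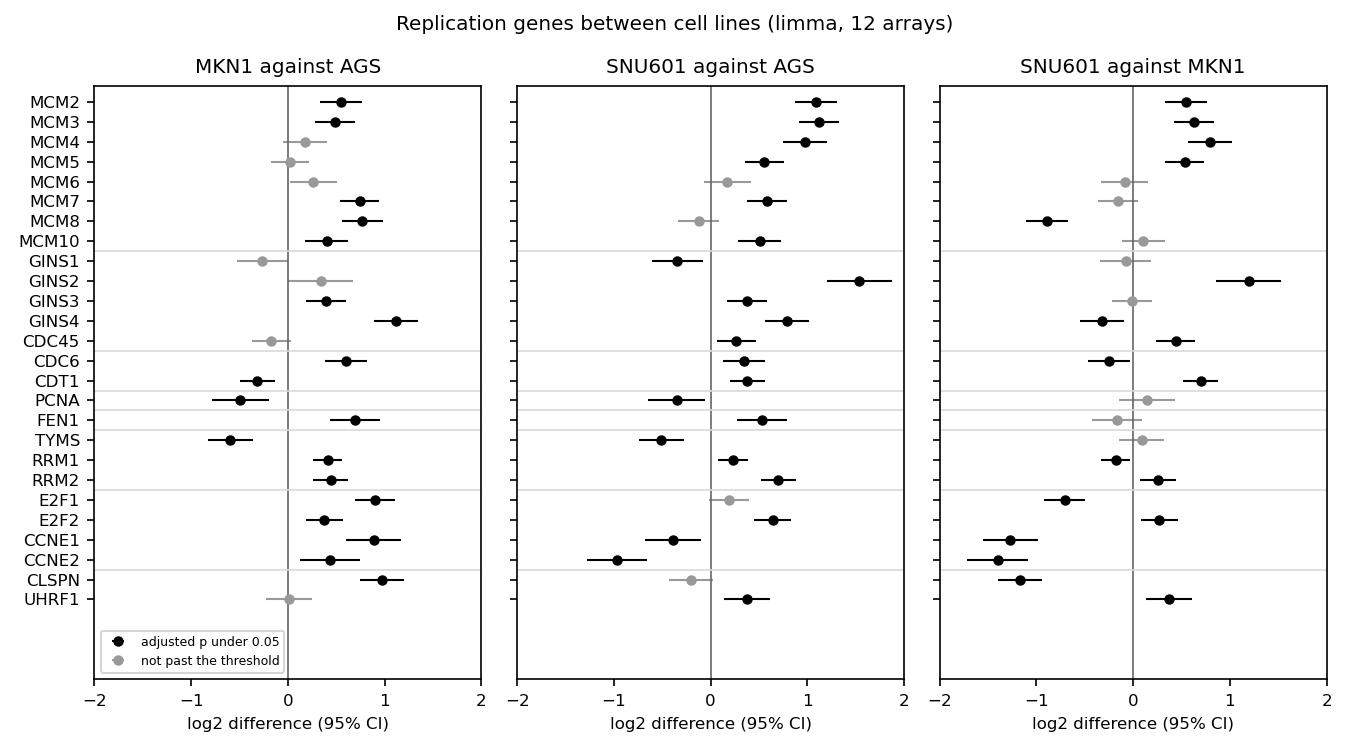
Log2 difference between lines (x axis) for each of the 26 replication genes (y axis), with 1 panel per pair of lines, points for the limma estimate over 12 arrays and bars for its 95% confidence interval, unadjusted. Genes past an adjusted p of 0.05 are black and the others grey. In SNU601 against AGS, GINS2 lies farthest to the right at 1.53 and CCNE2 farthest to the left at −0.96.

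Among the MCM genes, whose products form the helicase ring or act with it, SNU601 had the highest levels of MCM2, MCM3, MCM4 and MCM5. The signal of MCM3, a ring subunit, was 7.76, 7.31, 7.74 and 7.82 in AGS, 8.14, 8.17, 8.13 and 8.14 in MKN1 and 8.85, 8.70, 8.73 and 8.83 in SNU601. All 4 SNU601 arrays lay above all MKN1 arrays, and these above all AGS arrays. SNU601 exceeded AGS by 1.12 ± 0.09 (2.17-fold, adjusted p = 1.47e-06) and MKN1 by 0.63 ± 0.09 (adjusted p = 8.97e-05), and MKN1 exceeded AGS by 0.49 ± 0.09 (adjusted p = 0.000631). MCM2, another ring subunit, read 6.82, 6.39, 6.80 and 6.82 in AGS, 7.33, 7.24, 7.38 and 7.07 in MKN1 and 7.82, 7.80, 7.75 and 7.82 in SNU601, with the same order of lines and no overlap between them. Its differences were 1.09 for SNU601 against AGS, 0.54 for SNU601 against MKN1 and 0.55 for MKN1 against AGS, all past the threshold.

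MCM4 and MCM5 were higher in SNU601 than in either other line, by 0.97 and 0.79 for MCM4 and by 0.56 and 0.53 for MCM5. Between MKN1 and AGS they did not pass, with differences of 0.18 (95% interval −0.05 to 0.41) and 0.02 (−0.18 to 0.22). MCM7, a ring subunit too, followed another order, at 0.74 higher in MKN1 and 0.58 higher in SNU601 than in AGS, with −0.16 (−0.36 to 0.05) between SNU601 and MKN1. MCM6 passed in no pair of lines, with differences of 0.26, 0.17 and −0.09. Members of 1 ring thus differed in which lines passed the test, although whether their differences were unequal was not tested.

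MCM10, which helps to start the helicase, was higher in MKN1 (0.40) and in SNU601 (0.51) than in AGS. MCM8, which forms a separate helicase with roles in repair by recombination, had signals of 8.73, 8.23, 8.57 and 8.36 in AGS, 9.18, 9.22, 9.21 and 9.36 in MKN1 and 8.50, 8.25, 8.30 and 8.36 in SNU601. Its MKN1 arrays lay above all others, 0.77 ± 0.10 over AGS (adjusted p = 2.09e-05), and SNU601 was lower than MKN1 by 0.89 on the log2 scale (adjusted p = 6.35e-06). AGS and SNU601 overlapped, at −0.12 (−0.34 to 0.09).

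GINS2, a subunit of the GINS complex, had the largest difference between lines among the 26 genes. Its signal was 4.99, 4.23, 4.97 and 5.26 in AGS, 5.15, 5.19, 5.37 and 5.09 in MKN1 and 6.51, 6.36, 6.30 and 6.41 in SNU601. All SNU601 arrays were above every AGS and MKN1 array, which overlapped each other. SNU601 exceeded AGS by 1.53 ± 0.15 (2.90-fold, adjusted p = 5.85e-06) and MKN1 by 1.20 ± 0.15 (adjusted p = 2.56e-05), and the 0.34 ± 0.15 between MKN1 and AGS did not pass (adjusted p = 0.0698).

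GINS4, another subunit of the complex, was highest in MKN1 instead, with 5.02, 4.57, 4.51 and 5.06 in AGS, 5.94, 5.84, 5.86 and 6.0 in MKN1 and 5.49, 5.62, 5.56 and 5.66 in SNU601. No array of 1 line overlapped another line. MKN1 was 1.12 ± 0.10 above AGS (adjusted p = 1.44e-06) and SNU601 0.79 above it, and SNU601 against MKN1 gave −0.33 ± 0.10 (adjusted p = 0.0157). GINS3 was higher than in AGS in MKN1 (0.39) and SNU601 (0.38), and GINS1 was lower in SNU601 than in AGS (−0.34). CDC45 was higher in SNU601 than in AGS (0.27) and MKN1 (0.44).

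The licensing genes differed in their order of lines. CDT1, which brings the MCM ring to origins, had signals of 6.27, 6.54, 6.41 and 6.25 in AGS, 6.08, 5.98, 6.07 and 6.07 in MKN1 and 6.76, 6.86, 6.67 and 6.72 in SNU601. MKN1 was lowest and SNU601 highest, with no overlap between lines. SNU601 exceeded MKN1 by 0.70 ± 0.08 (1.62-fold, adjusted p = 1.38e-05) and AGS by 0.38, and MKN1 was lower than AGS with −0.32. CDC6, the ATPase that loads the ring together with CDT1, read 7.30, 6.99, 7.38 and 6.96 in AGS, 7.74, 7.85, 7.70 and 7.72 in MKN1 and 7.64, 7.51, 7.40 and 7.46 in SNU601. It was highest in MKN1, 0.60 above AGS, with SNU601 0.35 above AGS and at −0.25 against MKN1, all past the threshold.

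PCNA, the sliding clamp, was one of 3 genes highest in AGS. Its signal was 9.33, 8.94, 9.74 and 9.28 in AGS, 8.71, 8.85, 8.86 and 8.90 in MKN1 and 9.13, 8.96, 8.82 and 8.97 in SNU601. The AGS arrays ranged from 8.94 to 9.74 and overlapped the SNU601 arrays, while all MKN1 arrays lay below all AGS arrays. MKN1 was lower than AGS with −0.49 ± 0.13 (adjusted p = 0.00632) and SNU601 with −0.35 ± 0.13 (adjusted p = 0.0454), and SNU601 against MKN1 gave 0.14 (−0.15 to 0.44), not past the threshold.

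FEN1, the flap nuclease, ran the other way, at 6.23, 5.73, 6.42 and 6.13 in AGS, 6.79, 6.82, 6.86 and 6.81 in MKN1 and 6.63, 6.77, 6.59 and 6.64 in SNU601. Every AGS array lay below every MKN1 and SNU601 array, and MKN1 lay 0.69 ± 0.12 above AGS (1.62-fold, adjusted p = 0.000245) and SNU601 0.53 ± 0.12 above it (adjusted p = 0.00257). SNU601 against MKN1 was −0.16 (−0.42 to 0.09), not past the threshold.

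The 3 genes of nucleotide synthesis split between the lines. TYMS, thymidylate synthase, which makes the thymine nucleotide, read 8.96, 8.65, 9.15 and 9.04 in AGS, 8.43, 8.30, 8.34 and 8.34 in MKN1 and 8.64, 8.44, 8.24 and 8.44 in SNU601. All AGS arrays were above all arrays of MKN1, and MKN1 and SNU601 were lower than AGS with −0.60 ± 0.11 (adjusted p = 0.00031) and −0.51 ± 0.11 (adjusted p = 0.00148). RRM2, the small subunit of ribonucleotide reductase, which makes deoxynucleotides, read 6.87, 6.73, 6.86 and 6.98 in AGS, 7.24, 7.27, 7.38 and 7.33 in MKN1 and 7.57, 7.66, 7.55 and 7.46 in SNU601. The lines did not overlap. SNU601 was 0.70 ± 0.08 above AGS (adjusted p = 2.29e-05) and 0.26 ± 0.08 above MKN1 (adjusted p = 0.017). RRM1, the large subunit of the same enzyme, was highest in MKN1, 0.41 above AGS, with SNU601 0.23 above AGS and at −0.18 against MKN1.

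Among the genes of E2F and cyclin E, 3 of 4 were higher in MKN1 than in SNU601, and CCNE2 had the widest gap of the 26 genes between these lines. CCNE1, which codes for cyclin E1, the activator of the kinase CDK2, had signals of 7.43, 6.70, 7.37 and 7.12 in AGS, 8.04, 8.0, 8.17 and 7.95 in MKN1 and 6.80, 6.89, 6.62 and 6.77 in SNU601. MKN1 stood above every other array, 0.88 ± 0.13 over AGS (adjusted p = 7.95e-05), and SNU601 was lower than MKN1 with −1.27 ± 0.13 (2.41-fold, adjusted p = 4.02e-06). The AGS array with Rhosin, at 6.70, lay within the SNU601 range, and SNU601 against AGS was −0.38 ± 0.13 (adjusted p = 0.0273). CCNE2, for the related cyclin E2, read 6.31, 5.62, 6.52 and 6.16 in AGS, 6.66, 6.52, 6.62 and 6.56 in MKN1 and 5.07, 5.36, 5.20 and 5.12 in SNU601. SNU601 was lowest with no overlap, at −1.40 ± 0.14 against MKN1 (2.64-fold, adjusted p = 3.46e-06) and −0.96 ± 0.14 against AGS (adjusted p = 0.000128).

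E2F1, an activating E2F factor, read 6.41, 6.01, 6.36 and 6.35 in AGS, 6.98, 7.10, 7.45 and 7.19 in MKN1 and 6.47, 6.42, 6.57 and 6.44 in SNU601. MKN1 lay above both other lines on every array, 0.90 ± 0.10 over AGS (adjusted p = 4.97e-06), and SNU601 was lower than MKN1 with −0.71 ± 0.10 (adjusted p = 4.07e-05). E2F2, another activating factor, was instead highest in SNU601, 0.64 above AGS and 0.27 above MKN1. The high E2F1 and cyclin E levels and the high MCM2 to MCM5 levels were therefore in different lines.

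CLSPN, claspin, an adaptor of the checkpoint kinase at replication forks, read 6.95, 6.33, 6.85 and 6.74 in AGS, 7.71, 7.69, 7.78 and 7.57 in MKN1 and 6.65, 6.48, 6.44 and 6.50 in SNU601. MKN1 was highest with no overlap, 0.97 ± 0.10 over AGS (adjusted p = 5.2e-06), and SNU601 was lower than MKN1 with −1.17 ± 0.10 (2.25-fold, adjusted p = 1.08e-06). UHRF1, which helps to keep DNA methylation through replication, was higher in SNU601 than in AGS (0.38) and MKN1 (0.37).

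Without the Rhosin arrays, the median difference of the replication genes was 0.36 for MKN1 against AGS, with 21 genes called, and 0.29 for SNU601 against AGS, with 21 called. Some calls did not hold when the arrays of 1 treatment were left out, whichever treatment it was for some genes. Without the DMSO, JK136 or JK139 arrays in turn, GINS1, CDC45, CDC6, PCNA, RRM1 and CCNE1 lost the call for SNU601 against AGS in at least 1 of these fits, and CDC45 and UHRF1 lost it without the Rhosin arrays, which left counts between 16 and 21 in place of 22. For SNU601 against MKN1, GINS4, CDC6, RRM1, RRM2 and E2F2 lost the call in at least 1 such fit, with counts between 13 and 16, and for MKN1 against AGS only CCNE2 lost it, without the JK139 arrays.

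Other genes of the pathway, from lists assembled for comparison, did not all follow the same order. Of 11 other replication factors, 4 were higher and 5 lower in MKN1 than in AGS (median −0.02), 7 were higher and 0 lower in SNU601 than in AGS (median 0.37), and 7 were higher and 3 lower in SNU601 than in MKN1 (median 0.53). In the same order, 66.3%, 52.7% and 63.4% of all genes passed. WDHD1, which links the helicase to the polymerase that starts each strand, was lower in MKN1 than in AGS (−1.18 ± 0.08, adjusted p = 7e-08) and higher in SNU601 than in MKN1 (1.04 ± 0.08, adjusted p = 2.1e-07). DNA2, a nuclease and helicase of DNA ends, gave −0.91 and 0.88 in the same comparisons. TICRR, which acts when the helicase is assembled, was 1.34 ± 0.08 higher in SNU601 than in MKN1 (adjusted p = 3.72e-08). TIPIN, a fork protection factor, was 0.92 higher in SNU601 than in AGS. The histone chaperone gene ASF1B was higher than in AGS by 1.09 in MKN1 and by 0.71 in SNU601.

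Of 15 other G1/S regulators, 6 were higher and 2 lower in MKN1 than in AGS, 7 and 2 in SNU601 than in AGS, and 6 and 2 in SNU601 than in MKN1. Over all genes, 66.3%, 52.7% and 63.4% passed in these comparisons, which also holds as background for the mitosis genes below. TFDP2, a partner of E2F factors, was 0.88 above AGS in MKN1 and 0.83 above it in SNU601. The phosphatase gene CDC25A was 0.73 higher in SNU601 than in AGS, and E2F7, a repressing E2F factor, was 1.18 ± 0.09 higher in SNU601 than in MKN1 (adjusted p = 3.13e-07). Of 28 genes of mitosis and the spindle, whose transcripts peak later in the cycle, 16 were higher and 2 lower in MKN1 than in AGS (median 0.31), and 16 were higher and 0 lower in SNU601 than in AGS (median 0.28). Between SNU601 and MKN1, 7 mitosis genes were higher and 11 lower, with a median of −0.07. As among the replication genes, the mitosis genes that passed in the comparisons with AGS lay mostly on the higher side, and a difference between the lists was not tested.

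No replication gene passed the test for any treatment. In limma with cell line as a fixed term, 0 of 26 genes and 0 of 8930 genes (0%) had an adjusted p under 0.05 for Rhosin, JK136 or JK139 against DMSO, comparisons that share the DMSO arrays. At an unadjusted p under 0.05 there were 1, 0 and 0 of the 26 genes and 560, 469 and 218 of all genes. The median half-width of the unadjusted 95% interval of a replication gene was 0.25, so changes of that size or smaller across the 3 lines were not resolved. Larger differences did not pass the adjusted threshold either, such as −0.29 for GINS2 with Rhosin (limma, adjusted p = 0.834). The median difference from DMSO was −0.14 with Rhosin (all genes −0.02), with 24 of 26 genes below 0. It was −0.06 with JK136 (all genes −0.02), with 19 below 0, and −0.05 with JK139 (all genes −0.01), with 20 below 0. Of all 8930 genes, 4915 lay below 0 with Rhosin, 5003 with JK136 and 4873 with JK139.

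Without AGS, the median difference of the replication genes between Rhosin and DMSO was −0.0037, with 13 of 26 genes below 0, while it was −0.22 without MKN1 and −0.20 without SNU601. For JK136 the median was 0.02 without SNU601, with 11 of 26 genes below 0. The largest estimates in the subgroups were −0.27 ± 0.12 for CLSPN (adjusted p = 0.78), −0.29 ± 0.18 for GINS2 (adjusted p = 0.834), −0.23 ± 0.11 for MCM8 (adjusted p = 0.796), −0.23 ± 0.15 for CCNE1 (adjusted p = 0.838) and −0.22 ± 0.12 for TYMS (adjusted p = 0.819), all with Rhosin. For PCNA and FEN1 they were −0.14 ± 0.16 (adjusted p = 0.904) and −0.11 ± 0.14 (adjusted p = 0.916), and for CDC6 −0.18 ± 0.11 with JK139 (adjusted p = 0.9999). Without AGS the estimates for FEN1 and CCNE1 with Rhosin turned to 0.09 and 0.02.

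**Figure D3:**
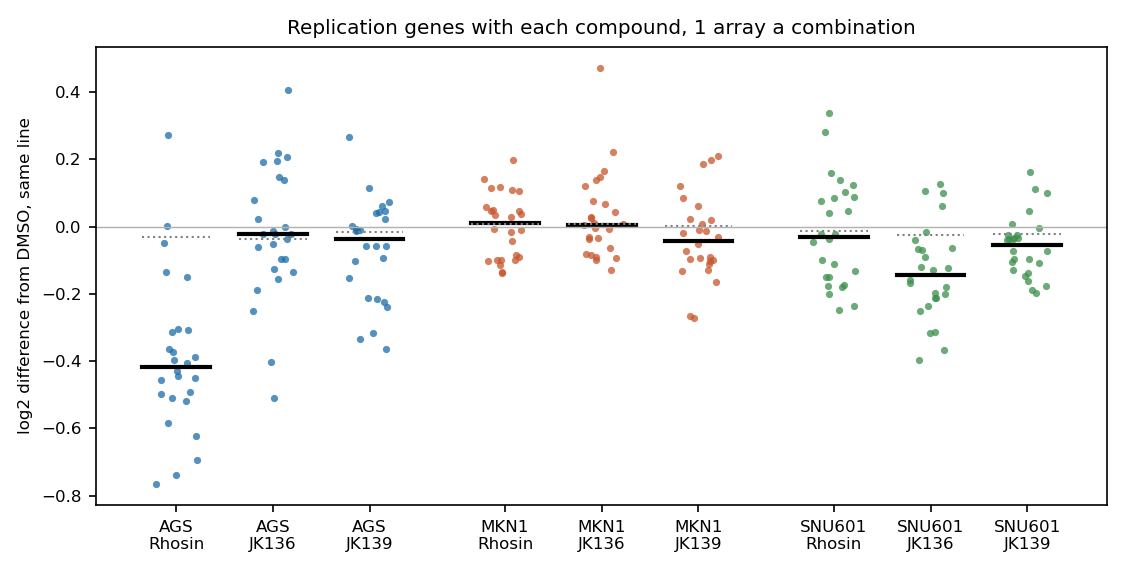
Difference in log2 signal from the DMSO array of the same line (y axis) for the 26 replication genes, 1 point per gene, by line and compound (x axis). The black bar is the median of the 26 genes and the grey dotted line that of all genes tested. In AGS with Rhosin the median is −0.42, while the other 8 medians lie between −0.14 and 0.01.

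Within AGS, the array with Rhosin had lower signals than the array with DMSO for 24 of the 26 genes, against 55.1% of all genes. With 1 array per combination these differences carry no test and no error, and the array was singled out after its values were seen. The median of the 26 differences was −0.42, against −0.03 over all genes, and the differences ranged from −0.77 to 0.27. GINS2 read 4.23 with Rhosin against 4.99 with DMSO, CCNE1 6.70 against 7.43, and CCNE2 5.62 against 6.31, which are the 3 widest gaps, at −0.77, −0.74 and −0.69. CLSPN was next at −0.62, then the ring subunit MCM6 at −0.58 and UHRF1 at −0.52. All 8 MCM genes were lower, from −0.37 for MCM7 to −0.58 for MCM6. The genes not lower were CDT1, at 0.27, and E2F2, whose values of 5.69 were alike.

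The subgroups differed in how far they lay below DMSO on that array. The median was −0.57 for CLSPN with UHRF1, −0.55 for E2F and cyclin E, −0.45 for the MCM genes and −0.36 for GINS and CDC45. The single genes FEN1 and PCNA lay at −0.50 and −0.40. For nucleotide synthesis the median was −0.13. For licensing it was −0.02, where CDC6 at −0.31 and CDT1 at 0.27 lay on opposite sides of 0. Within nucleotide synthesis, RRM1 was at −0.05, RRM2 at −0.13 and TYMS at −0.31. Over the 11 other replication factors the median was −0.25, over the 15 other G1/S regulators −0.17 and over the 28 mitosis genes −0.18. For 19 of the 26 genes the Rhosin array was the lowest of the 4 AGS arrays, as it was for 31.9% of all genes.

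The spread of all log2 signals on the AGS arrays with Rhosin and JK136 was an SD of 1.99 each, against 2.00 to 2.03 on the other arrays. When each array was centred on its median, 23 of the 26 genes lay below DMSO with a median of −0.35, while 44.4% of all genes did. Quantile normalization of the arrays once more gave 23 genes and −0.35 as well, against 47.0% of all genes. The median SD over the 4 arrays of a line was 0.22 for the replication genes in AGS, 0.08 in MKN1 and 0.09 in SNU601, against 0.15, 0.12 and 0.11 over all genes. Without the Rhosin arrays it was 0.12 in AGS, against 0.13 over all genes.

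With the other compounds in AGS, the median of the 26 genes lay near that of all genes, which was −0.04 with JK136 and −0.02 with JK139. With JK136, 17 of 26 genes lay below DMSO (all genes 56.3%) with a median of −0.02. After centring 11 of 26 did (all genes 47.9%), with a median of 0.02. PCNA was 0.41 above DMSO, and GINS4 and CDC45 were at −0.51 and −0.40. Subgroups and comparison lists differed on the JK136 array, with medians of −0.25 for GINS and CDC45 and −0.07 for the MCM genes. The medians were −0.19 over the other replication factors, −0.12 over the mitosis genes and 0.12 over the other G1/S regulators. With JK139, 17 of 26 lay below DMSO (all genes 53.4%), with a median of −0.04, and 13 after centring (all genes 49.5%). The same 3 comparison lists had medians of −0.04, 0.02 and −0.02 with JK139.

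In MKN1, 13 of 26 genes lay below DMSO with Rhosin (all genes 48.4%), 12 with JK136 (48.6%) and 17 with JK139 (49.8%), and the medians were 0.01, 0.01 and −0.04. After centring, 16 lay below DMSO with JK136, as did 54.4% of all genes. E2F1 on the JK136 array, at 7.45 against 6.98 with DMSO, had the widest difference of any replication gene in this line, 0.47.

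In SNU601, 15 genes lay below DMSO with Rhosin (all genes 52.9%), with a median of −0.03. After another quantile normalization 12 did (all genes 45.8%), with a median of 0.01. With JK136, 22 of 26 genes lay below DMSO (all genes 55.8%), with a median of −0.14, and the JK136 array was the lowest of 4 for 18 of the 26 genes, as it was for 28.1% of all genes. TYMS, at −0.40, GINS1, at −0.37, PCNA, at −0.32, and E2F2, at −0.31, had the widest differences there. The comparison lists lay below DMSO on this array as well, with medians of −0.22 over the 28 mitosis genes (27 lower), −0.16 over the 11 other replication factors (11 lower) and −0.16 over the 15 other G1/S regulators (14 lower). Centring gave 22 replication genes with a median of −0.14 (all genes 55.3%), and quantile normalization 21 with −0.12 (all genes 51.3%). This array too was singled out after its values were seen. With JK139, 21 genes lay below DMSO (all genes 55.4%), with a median of −0.06. In this line the comparison lists also had medians below DMSO with Rhosin and JK139. In that order these were −0.14 and −0.09 over the mitosis genes and −0.10 and −0.09 over the other replication factors. Over the other G1/S regulators they were −0.03 and −0.09. All compounds in SNU601 were set against the same single DMSO array.

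Whether the lines differed in their mean response to the 3 compounds was tested by the interaction of line with exposure, whose error comes from the spread between compounds. In limma 0 of 26 replication genes and 0 of 8930 genes (0%) passed, and 0 and 274 had an unadjusted p under 0.05. The smallest adjusted p was 0.9998. Averaged over the compounds, the replication genes had a median response of −0.17 in AGS, of −0.01 in MKN1 and of −0.06 in SNU601. Over all genes the medians were −0.03, 0.0041 and −0.02. A response to Rhosin alone that differs between lines could not be tested with 1 array per combination.

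Compared with one another, the compounds did not differ for any replication gene past the threshold. In limma 0 of 26 genes and 0 of 8930 genes (0%) passed for JK136 against Rhosin, JK139 against Rhosin and JK139 against JK136, with 1, 0 and 1 of the 26 genes and 812, 663 and 494 of all genes at an unadjusted p under 0.05. The adjusted p-values run over genes within each of these 3 pairs. The doses are not stated, so it is not known whether they match. JK136 against Rhosin gave a median of 0.12 over the 26 genes, with 19 above 0 (48.4% of all genes), and −0.04 without AGS. E2F1 had the smallest p in that pair, at 0.28 (95% interval 0.04 to 0.53, adjusted p = 0.491), higher with JK136 in 3 of 3 lines. JK139 against Rhosin had a median of 0.10, with 20 above 0 (50.5% of all genes), and −0.03 without AGS. In limma GINS4 had the smallest p there, at 0.23 (−0.03 to 0.49, adjusted p = 0.69). JK139 against JK136 had a median of −0.02, with 12 above 0 (51.8% of all genes). In limma GINS4 again had the smallest p, at 0.27 (0.005 to 0.53, adjusted p = 0.891), higher with JK139 in 3 of 3 lines. Intervals of this width do not show that the compounds act alike.

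**Figure D4:**
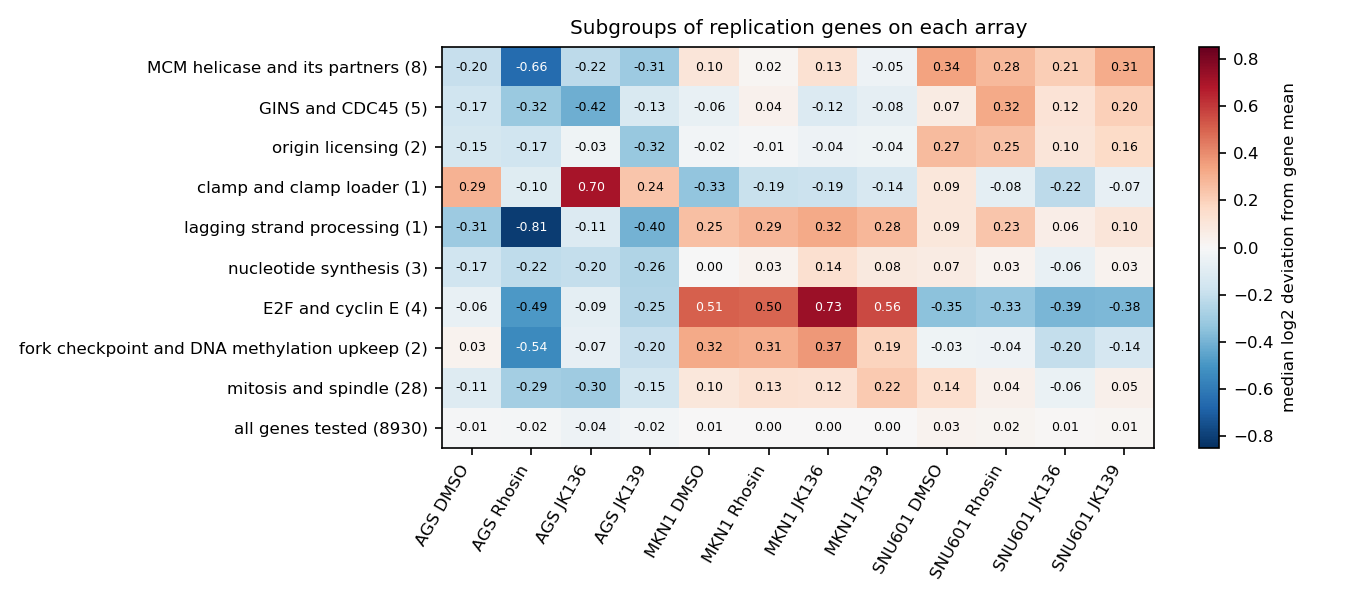
Heat map of the median over the genes of each subgroup (rows) of log2 signal centred per gene over the 12 arrays (columns), with the number of genes in brackets and the mitosis genes and all genes tested below for comparison. The AGS column with Rhosin is below the AGS column with DMSO for E2F and cyclin E, the MCM genes and the GINS genes, by medians of −0.55, −0.45 and −0.36 when taken gene by gene.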

How the data were processed

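Total RNA of 12 samples was hybridised to Affymetrix GeneChip Human Gene 2.0 ST arrays. The deposited values are log2 signals after robust multi-array average (RMA) processing in Affymetrix Expression Console, per the submitters' processing notes, and versions are not given in the sources used here. RMA corrects background, quantile normalizes the arrays and summarises probes per transcript cluster, so levels on 1 array depend on the others. Of 53617 clusters, 16098 carried a symbol, and the cluster with the highest mean signal stood for each of the 14884 symbols. Genes with a mean under the 40th percentile (4.61) were left out, which left 8930.

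Differences were fitted with limma 3.58.1 in R 4.3.3, with line and treatment as fixed terms over 12 arrays and 6 residual degrees of freedom (4 for the interaction). Benjamini-Hochberg adjustment ran over the 8930 genes, and an adjusted p under 0.05 was called. The cell line pairs the treatments, since arrays with the same line name come from the same line. Precision is limited by the number of arrays. The script was tested on simulated data.

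The genes, the lists and the tests were chosen with earlier results of these data known. Every gene found is accounted for by subgroup. Values on all 12 arrays are given for the gene of each subgroup with the largest called difference between lines and with the largest difference from DMSO, and for the 3 genes farthest from DMSO in AGS. The per-array values of MCM2, GINS4 and E2F1 were added after their values were seen. For other pathway genes, up to 4 a line comparison were named by the size of called differences. Alternatives covered scaling, filters, the choice of cluster, priors, thresholds, the terms of the model and leaving out each line or treatment. The within-line counts under other scalings, the counts of lowest arrays and the SD without Rhosin were added after seeing the data.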

Additional observations from a re-analysis of the deposited data

Results flagged for a closer look

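Within the 4 arrays of a line, 7 of 78 sets of values (26 genes in 3 lines) held an array whose gap to the nearest other array, as a share of the whole range, exceeded Dixon's critical value for 4 samples. For 4 normally distributed values of 1 condition such gaps arise in about 5% of sets, but the arrays of a line had different treatments. The share over all genes tested was not computed, so it is not known whether the replication genes exceed it. The sets of different genes on 1 array are not independent. In 4 of the 7 the array was AGS with Rhosin, at the low end. The share was 0.952 for MCM2, 0.922 for MCM4, 0.837 for MCM3 and 0.854 for E2F1, so for these genes the other 3 AGS arrays lay close together and the Rhosin array below them. The low MKN1 value of CDT1 with Rhosin gave 0.896, over a range of 5.98 to 6.08 in that line. The low SNU601 value of GINS1 with JK136, 7.03, gave 0.893, and the high SNU601 value of MCM10 with DMSO, 7.54, gave 0.913.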

How the results depend on the processing

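In the 3 line comparisons, no called replication gene changed sign under any alternative run, and counts of called genes stayed within 1.5 times the reported ones. Single calls did depend on processing. Without the filter, GINS1, CDC45, PCNA and CCNE1 lost the call for SNU601 against AGS. CDC6 and RRM1 lost it for SNU601 against MKN1 without the filter and also after centring on the array median. Other runs gained calls, such as MCM6 for MKN1 against AGS after quantile normalization. For treatments, 0 replication genes were called under every alternative. Over all genes, 1 was called for Rhosin against DMSO and 2 for JK136 against Rhosin with a trended, robust prior, 1 for JK136 against Rhosin at an adjusted p under 0.10, and 1 for JK136 against DMSO without the filter. The median of the replication genes for JK139 against DMSO was −0.036 after quantile normalization and −0.066 with a filter at the 60th percentile. For JK136 against DMSO it ranged from −0.085 (without MKN1) to 0.017 (without SNU601) when a line was left out. With Rhosin, leaving out a line gave −0.23 to 0.087 for FEN1 and −0.39 to 0.022 for CCNE1, the highest values being those without AGS. Without the replicate block of cell line, 0 replication genes and 0 of all genes were called for each compound against DMSO. Of all recomputed values, 540 were classed as unchanged. Estimates of single genes were so classed if they kept their direction and their side of the threshold. Medians had to stay within the replicate spread, and counts within 1.5 times the reported count. Single genes could cross the threshold under a count classed as unchanged. Of the remaining values, 4 counts rose above 0, 3 medians moved further and 2 estimates changed sign. With 1 array per combination, no response within a line could be tested.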
